A study of Oryctolagus cuniculus with 12 samples.

Results

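The 10 genes described here encode receptors, adaptors, and marker proteins of macrophages: CSF1R, CD163, MRC1, MSR1, MARCO, CD14, CD68, TYROBP, FCER1G, and AIF1. They were chosen by name, each was found as 1 row of the deposited table of 20566 genes, and all 10 passed the filter on low counts with which 14835 genes were tested. Their RNA was measured in conjunctiva of female Japanese white rabbits in 12 libraries, 3 in each of 4 groups. The group TL-3h (TL3h here) was taken 3 hours, TL-3d (TL3d) 3 days, and TL-14d (TL14d) 14 days after the right eye had undergone trabeculectomy with mitomycin C. The group cont (control) came from left eyes. In trabeculectomy, a fistula under a flap of sclera drains aqueous humor into a bleb below the conjunctiva, and mitomycin C, which crosslinks DNA, is applied to limit scarring. The bleb was collected with the conjunctiva. Per the methods of the study, which took these libraries over from earlier work, its rabbits were 12 to 14 weeks old. Its operation included a removal of peripheral iris and ended with a conjunctival injection of betamethasone, a glucocorticoid, and an antibiotic ointment. The operated groups share all of these steps, so surgery, mitomycin C, betamethasone, and aqueous humor cannot be told apart in them. Neither the labels nor the methods say which left eye belongs to which operated eye or how long after surgery the control eyes were sampled. The 3 comparisons with the control group share the same 3 control libraries.

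Macrophages are phagocytes that live in most tissues and are joined after injury by monocytes from the blood, which mature into macrophages in place. CSF1R is the receptor through which the growth factors CSF1 and IL-34 maintain these cells. CD163, MRC1, MSR1, and MARCO are surface receptors that take up ligands, CD14 passes bacterial lipopolysaccharide to TLR4, and TYROBP and FCER1G are short adaptors through which receptors without a signaling tail activate the kinase SYK. Several of these genes are not limited to macrophages: CD14, TYROBP, and FCER1G are also transcribed in neutrophils, FCER1G in mast cells, TYROBP in natural killer cells, and MRC1 in lymphatic endothelium. In conjunctiva, macrophages and dendritic cells lie in the stroma beneath the epithelium.

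The total of estimated counts per library lay between 27111276 and 38591374. Levels are given as CPM, a library's count of a gene scaled to a common library size adjusted by TMM, which assumes that most genes do not differ. A gene is called where the adjusted p (q) of the edgeR quasi-likelihood test was at or under 0.05. The TMM factors of TL3h lay between 0.768 and 0.783 and those of the other libraries between 1.03 and 1.13. Over all genes in TL3h against the control group, scaling by library size alone moved the median log2 fold change from 0.02 to −0.47. It moved the share of higher genes among those called there from 51.0% to 25.0%. In TL3d against TL3h it moved the median from −0.05 to 0.43 and that share from 49.2% to 80.5%. A pair of libraries stood apart from the others of their groups. Control replicate 3 held the highest level of 9 of the 10 genes in its group. TL14d replicate 1 had a mean correlation of 0.962 with the control libraries and of 0.898 with its own group. The tissue label was checked by markers of conjunctival epithelium, and KRT4 and KRT5 were at 752 CPM or more and at 1258 CPM or more in every library, with PAX6 at 54.0 CPM or more.

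On the genome build OryCun2.0, the receptor genes CSF1R (gene ID 100340992) and CD14 (100008983) lie on chromosome 3, at positions 31834455 to 31858288 and 22754430 to 22755771, both on the minus strand. CD163 (100350160) lies on chromosome 8 from 33364820 to 33390024 on the minus strand, and MRC1 (100345866) on chromosome 16 from 43399919 to 43512815 on the minus strand. MSR1 (100009067) lies on chromosome 2 from 69694582 to 69778850 on the plus strand, and MARCO (100342703) on chromosome 7 from 63885214 to 63921374 on the minus strand. CD68 (100344094) lies on chromosome 19 from 11598423 to 11600560 on the minus strand and AIF1 (100350092) on chromosome 12 from 20429387 to 20431388 on the plus strand. Of the adaptors, FCER1G (103350027) lies on chromosome 13 from 31763839 to 31767563 on the minus strand, and TYROBP (103345430) on unplaced sequence, on the minus strand. Each row spans a whole gene, and MARCO is the member with 2 listed transcripts, where each of the others has 1.

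Levels of different genes were compared in FPKM, which the authors had divided by transcript length. In the control group 8 genes lay close together, from CSF1R at 26.4 ± 24.8 FPKM (mean ± SD, n = 3) through AIF1, TYROBP, CD68, CD163, FCER1G, and MRC1 to CD14 at 12.5 ± 11.7. The libraries of neighbors in this order overlapped. MARCO at 1.07 ± 0.934 and MSR1 at 0.947 ± 0.527 FPKM lay below the lowest library of each of these 8 genes and overlapped with each other. At 3 hours the order began with CD14 at 114 ± 39.7, TYROBP at 112 ± 43.5, and FCER1G at 98.8 ± 31.4 FPKM, and these 3 overlapped. CD68 followed at 56.0 ± 12.1 FPKM, overlapping with FCER1G, its lowest library (43.2) above the highest library of CD163, AIF1, MRC1, and CSF1R (35.5), which lay between 24.5 and 28.4 FPKM on average and overlapped with each other. MSR1 at 4.94 ± 0.973 and MARCO at 0.729 ± 0.452 FPKM lay below these and apart from each other. At 3 days TYROBP, at 185 ± 42.2 FPKM, headed a row of 7 genes that ended with FCER1G at 111 ± 16.9 and in which each neighbor overlapped with the next. CSF1R was the third in that row at 139 ± 41.1 FPKM, after being the eighth at 3 hours. MRC1 at 60.6 ± 24.2 FPKM lay below the row and overlapped with MSR1 at 37.1 ± 9.35, and MARCO at 2.48 ± 2.33 lay below both. At 14 days the libraries spread so widely that all neighbors overlapped, from AIF1 at 39.1 ± 21.0 FPKM to CD163 at 3.73 ± 3.10 and MARCO at 1.28 ± 0.694.

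**Figure D1:**
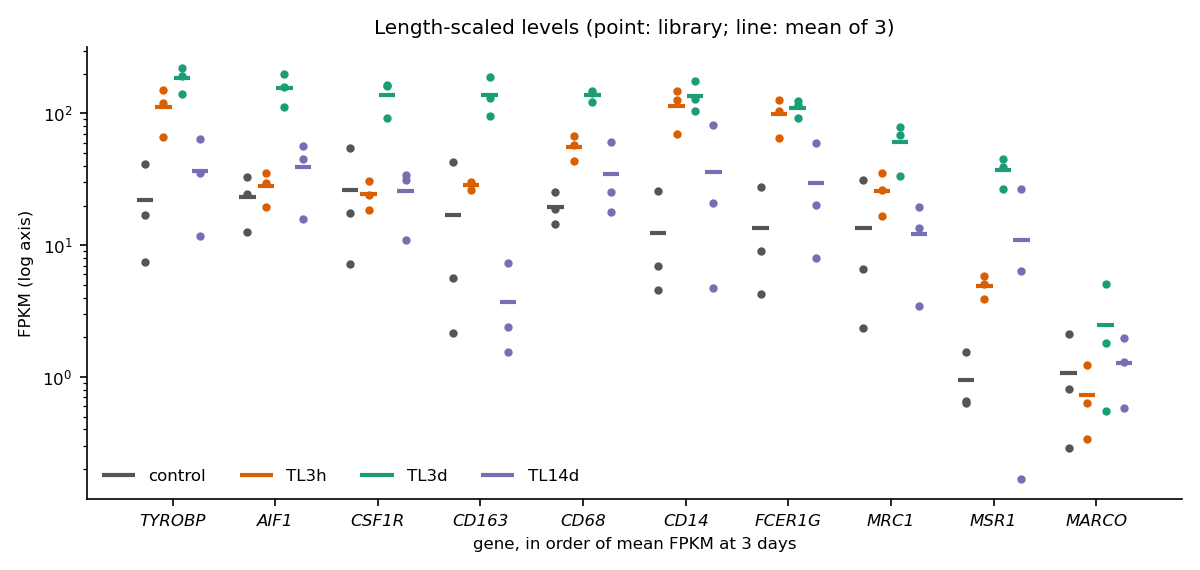
FPKM of each gene (log axis) in each library, with a point per library, a line at the mean of 3, and colors for the 4 groups, in the order of the mean at 3 days. TYROBP, CD14, and FCER1G have the highest means at 3 hours (98.8 to 114 FPKM), 7 genes lie together between 91.7 and 223 FPKM at 3 days, and MARCO stays at 5.07 FPKM or less in every library.

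Of the 10 genes, 4 rose at 3 hours against the control group (CD68, CD14, TYROBP, and FCER1G), where 23.2% of all genes tested were called higher and 45.4% were called in either direction. At 3 days 7 rose (CSF1R, MSR1, AIF1, and the same 4), where 10.6% of all genes were called higher and 17.6% in either direction. None fell in either comparison. At 14 days the edgeR quasi-likelihood test called 0 of the 10 and 0 of the 14835 genes, while 2 of the 10 and 1538 of all genes had an unadjusted p under 0.05. For that comparison limma-trend called 0 genes, and DESeq2 called 367 genes and, of the 10, MSR1. Between 3 hours and 3 days CSF1R and AIF1 rose, where 37.3% of all genes were called, 18.4% higher and 19.0% lower. Between 3 days and 14 days CD163 and CD68 fell, where 2.24% of all genes were called, 0.647% higher and 1.59% lower. In bulk tissue, fewer cells of a type and less RNA per cell cannot be told apart, and neither can more of both. Over the 10 genes the median log2 fold change was 1.68 at 3 hours, 2.88 at 3 days, and 0.71 at 14 days against the control group, beside medians of 0.02, −0.00, and 0.02 over all genes tested. In the last step, from 3 days to 14 days, it was −1.99 beside 0.03.

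The counts of called genes depended on single libraries. Without control replicate 3, 6 of the 10 were called at 3 hours, 9 at 3 days, 0 at 14 days, 3 between 3 hours and 3 days, and 3 between 3 days and 14 days, with 45.3%, 14.7%, 0%, 37.2%, and 2.99% of all genes called. Without control replicate 3 and TL14d replicate 1 together, an alternative chosen after the data were seen, the counts were 9, 9, 3, 4, and 1, with 50.3%, 25.6%, 6.64%, 43.3%, and 2.13% of all genes called. The 3 genes called at 14 days in that fit were MSR1 (log2 fold change 4.67, q = 0.014), CD14 (3.16, q = 0.0329), and FCER1G (2.6, q = 0.0387). Over 20 alternatives q at 14 days reached 0.978 for MSR1 and 1 for CD14 and FCER1G. At 3 days against the control group the 7 calls became 2 without control replicate 1 and 1 without control replicate 2. They became 2 without TL3d replicate 1, 2 without TL3d replicate 2, and 4 without TL3d replicate 3. The count over all genes fell in these fits too, from 2608 to between 359 and 491 without control replicate 1 or 2 or without TL3d replicate 1 or 2. All 3 libraries of TL3d lay above all 3 control libraries for 9 of the 10 genes, where 23.8% of all genes did so and 21.7% lay below in all 3 libraries. At 3 hours 5 of the 10 genes lay above the control libraries, where 28.9% of all genes did so. From 3 hours to 3 days 5 of the 10 genes lay above in all 3 libraries (26.2% of all genes). From 3 days to 14 days 9 of the 10 lay below (14.0% of all genes), with MARCO as the exception. No gene of the 10 was separate from the control group at 14 days, where 6.03% of all genes lay above it and 5.11% below. With 3 libraries against 3, an exact permutation test of 1 gene could not go below p = 0.1 (two-sided).

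**Figure D2:**
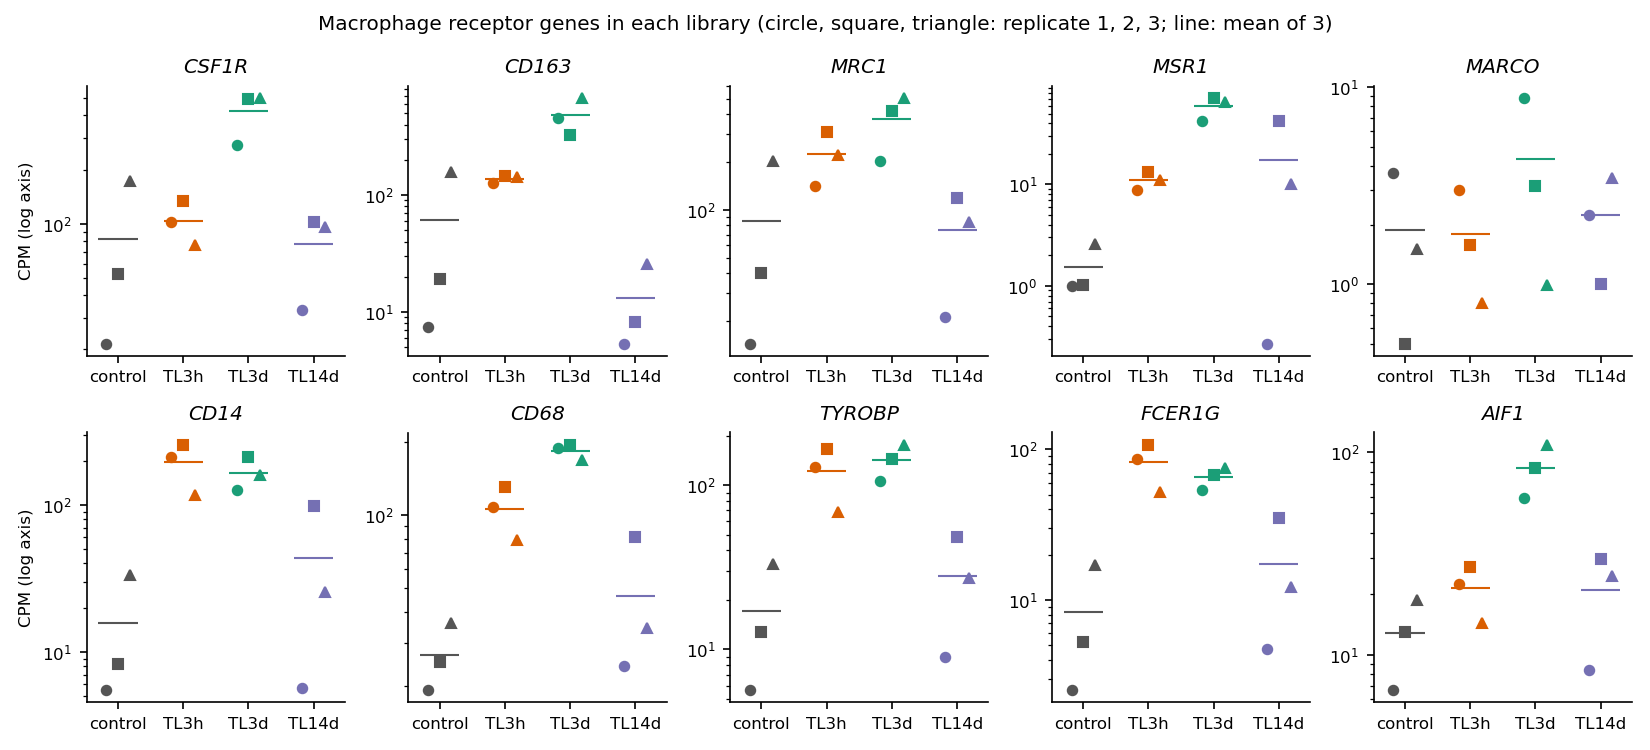
Level of each gene in each library (CPM, log axis), with circles, squares, and triangles for replicates 1, 2, and 3 and a line at the mean of 3. In 9 of 10 panels the 3 libraries of TL3d lie above the 3 control libraries, and in every panel but that of MARCO control replicate 3 is the highest of its group.

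CD14, the receptor that binds lipopolysaccharide, was at 5.48, 8.25, and 33.1 CPM in control replicates 1 to 3, at 213, 256, and 117 CPM in TL3h. It was at 126, 211, and 160 CPM in TL3d and at 5.68, 98.4, and 25.7 CPM in TL14d. Every library of TL3h and TL3d was above every control library, and the TL14d libraries ran from the control level to just below that of TL3h. CD14 rose 12.5-fold at 3 hours (log2 fold change 3.64, SE 0.99, q = 0.0126) and 10.6-fold at 3 days (3.41, SE 0.98, q = 0.0402). Its log2 fold change from 3 hours to 3 days was −0.24 (SE 0.89, q = 0.854), and it was 0.24 when scaled by library size alone. The 3-hour call was lost without control replicate 2 (q = 0.0514, the highest of 20 alternatives, whose lowest was 0.000112). The 3-day call was lost in 9 of 20 alternatives (q from 0.000798 to 0.125), each of which left out a library. These were control replicate 1 (0.118) or 2 (0.125), TL3h replicate 1 (0.057), 2 (0.0516), or 3 (0.0546), TL3d replicate 1 (0.0818), 2 (0.106), or 3 (0.0591), or TL14d replicate 3 (0.0523).

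TYROBP, the adaptor also known as DAP12, was at 5.65, 12.8, and 33.2 CPM in the control libraries, at 128, 167, and 68.9 CPM in TL3h. It was at 106, 144, and 176 CPM in TL3d and at 8.98, 48.2, and 27.2 CPM in TL14d. FCER1G, the common gamma chain of receptors for the Fc part of immunoglobulins, was at 2.52, 5.23, and 17.1 CPM in the control libraries, at 86.9, 107, and 52.4 CPM in TL3h. It was at 53.8, 67.6, and 75.7 CPM in TL3d and at 4.71, 35.0, and 12.1 CPM in TL14d. In both genes the 6 libraries of TL3h and TL3d lay above the control libraries, with no overlap, and the libraries of TL3h and TL3d overlapped with each other. TYROBP rose 7.04-fold at 3 hours (log2 fold change 2.82, SE 0.72, q = 0.00951) and 8.24-fold at 3 days (3.04, SE 0.73, q = 0.023). FCER1G rose 9.93-fold at 3 hours (3.31, SE 0.81, q = 0.00776) and 7.94-fold at 3 days (2.99, SE 0.80, q = 0.0326). Both 3-hour calls held in all 20 alternatives, with q of at most 0.0415 for TYROBP and 0.0354 for FCER1G. At 3 days the call was lost in both genes without control replicate 1 (q = 0.0696 for TYROBP and 0.0929 for FCER1G) and without control replicate 2 (0.0841 and 0.109). It was also lost without TL3d replicate 1 (0.058 and 0.0732), and without TL3d replicate 2 (0.0674 and 0.0841), and in FCER1G without TL3d replicate 3 (0.0557). The lowest q of 20 alternatives was 0.000128 for TYROBP and 0.000643 for FCER1G. Neither was called from 3 hours to 3 days. The log2 fold changes were 0.23 (SE 0.67, q = 0.816) for TYROBP and −0.32 (SE 0.74, q = 0.76) for FCER1G, which was 0.15 on library size alone.

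CD68, a glycoprotein of lysosome and endosome membranes, was at 19.2, 25.0, and 36.1 CPM in the control libraries and at 108, 130, and 79.4 CPM in TL3h. Its libraries were at 189, 194, and 168 CPM in TL3d and at 24.0, 81.0, and 34.5 CPM in TL14d. Each of the first 3 groups was separate from the next, and TL14d overlapped with the control group and, by 1 library, with TL3h. CD68 rose 3.95-fold at 3 hours (log2 fold change 1.98, SE 0.42, q = 0.00357) and 6.86-fold at 3 days (2.78, SE 0.43, q = 0.00971), and both calls held in all 20 alternatives, with q of at most 0.0185 and 0.0432. From 3 hours to 3 days its log2 fold change was 0.80 (SE 0.40, q = 0.146), which was called on library size alone (q = 0.0256), in the fit of only the 2 groups (q = 0.0218), and without TL14d replicate 2 (q = 0.0377), with q up to 0.31. It fell 3.95-fold from 3 days to 14 days (−1.98, SE 0.42, q = 0.0444). That call was lost in 12 of 20 alternatives (q from 0.000289 to 0.137). These were the fit of only the 2 groups (0.129), the fits without any single library other than control replicate 3 and TL14d replicate 2 (from 0.0546 to 0.137), and that without control replicate 3 and TL14d replicate 1 together (0.0633). The log2 fold change stayed between −2.65 and −1.66.

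AIF1, also called IBA1, which binds calcium and actin in microglia and other macrophages, was at 6.67, 12.9, and 18.6 CPM in the control libraries, at 22.2, 27.2, and 14.3 CPM in TL3h. It was at 59.5, 83.2, and 109 CPM in TL3d and at 8.41, 29.8, and 24.4 CPM in TL14d. The TL3d libraries lay above all others, and the other 3 groups overlapped. AIF1 rose 6.59-fold at 3 days against the control group (log2 fold change 2.72, SE 0.52, q = 0.0137) and 3.95-fold from 3 hours to 3 days (1.98, SE 0.50, q = 0.0116). The second call held in all 20 alternatives (q of at most 0.0446), and of the 20 alternatives the first was lost only without control replicate 2 (q = 0.0552, where the lowest was 3.95e-06). At 3 hours its log2 fold change against the control group was 0.74 (SE 0.49, q = 0.25), and without control replicate 3 and TL14d replicate 1 together it rose (1.07, q = 0.0481, with q up to 0.682 over 20 alternatives).

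CSF1R, the receptor of CSF1 and IL-34, was at 21.5, 52.6, and 173 CPM in the control libraries, at 102, 134, and 76.6 CPM in TL3h. It was at 274, 491, and 498 CPM in TL3d and at 32.9, 102, and 96.1 CPM in TL14d. The TL3d libraries lay above all others, and the other groups overlapped, with control replicate 3 above every library of TL3h and TL14d. CSF1R rose 5.11-fold at 3 days against the control group (log2 fold change 2.35, SE 0.70, q = 0.044) and 4.04-fold from 3 hours to 3 days (2.02, SE 0.69, q = 0.0419). At 3 hours its log2 fold change against the control group was 0.34 (SE 0.66, q = 0.713), and it was −0.12 on library size alone. Without control replicate 3 and TL14d replicate 1 together it rose at 3 hours (1.44, q = 0.0233, with q up to 0.954 over 20 alternatives). From 3 days to 14 days its log2 fold change was −2.45 (SE 0.70, q = 0.0896), which was called without control replicate 3 (q = 0.0378) and by DESeq2 (q = 0.00459), with q up to 0.222. The 3-day call against the control group was lost in 10 of 20 alternatives (q from 0.00307 to 0.134). It was lost in the fit of only the 2 groups (0.081) and without control replicate 1 (0.0981) or 2 (0.134). It was lost too without TL3h replicate 1 (0.062), 2 (0.0549), or 3 (0.0599), without TL3d replicate 1 (0.0774), 2 (0.116), or 3 (0.0768), and without TL14d replicate 3 (0.0593). The call between 3 hours and 3 days was lost in 8 (q from 0.00331 to 0.118). These left out TL3h replicate 1 (0.0976), 2 (0.0695), or 3 (0.118), TL3d replicate 1 (0.0501), 2 (0.101), or 3 (0.0871), control replicate 2 (0.0512), or TL14d replicate 3 (0.0543). In all 20 alternatives the log2 fold changes of these 2 comparisons stayed between 1.90 and 3.49 and between 1.85 and 2.49.

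CD163, the receptor for the complex of haptoglobin and hemoglobin, was at 7.45, 19.3, and 157 CPM in the control libraries, at 127, 144, and 144 CPM in TL3h. It was at 453, 328, and 673 CPM in TL3d and at 5.35, 8.18, and 25.6 CPM in TL14d. The control libraries spread 21.1-fold between the lowest and the highest, TL3h spread 1.14-fold, the TL3d libraries lay above all others, and the TL14d libraries lay below every library of TL3h and TL3d. CD163 fell 37.1-fold from 3 days to 14 days (log2 fold change −5.21, SE 1.11, q = 0.0457), the largest change of the 10 genes in that step. It was not called against the control group, with log2 fold changes of 1.18 (SE 0.94, q = 0.341) at 3 hours, 2.98 (SE 1.0, q = 0.0636) at 3 days, and −2.23 (SE 0.97, q = 0.476) at 14 days. At 3 days it was called with all libraries kept by DESeq2 (2.98, q = 0.00503) and limma-trend (4.03, q = 0.019). Without control replicate 3 it rose against the control group at 3 hours (3.32, q = 0.00537) and at 3 days (5.17, q = 0.016), and over 20 alternatives q ran from 0.00264 to 0.615 and from 0.003 to 0.165. From 3 hours to 3 days it was not called (1.81, SE 0.96, q = 0.162), except without control replicate 3 (q = 0.0322), without that library and TL14d replicate 1 together (q = 0.0164), and in the fit of only the 2 groups (q = 0.00405), with q up to 0.296. The value at 14 days became −0.04 without control replicate 3 and 0.33 (q = 0.76) without control replicate 3 and TL14d replicate 1 together. The fall from 3 days to 14 days was lost in 11 of 20 alternatives (q from 6.62e-07 to 0.125). It was lost in the fit of only the 2 groups (0.067) and without control replicate 2 (0.0604) or TL3h replicate 1 (0.0724), 2 (0.0624), or 3 (0.0674). It was lost as well without TL3d replicate 1 (0.125), 2 (0.121), or 3 (0.0711) or TL14d replicate 1 (0.119), 2 (0.067), or 3 (0.0853). Its log2 fold change stayed between −6.16 and −4.84.

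MRC1, the mannose receptor, was at 14.5, 39.9, and 202 CPM in the control libraries, at 142, 309, and 220 CPM in TL3h. It was at 203, 418, and 504 CPM in TL3d and at 21.3, 119, and 84.2 CPM in TL14d. Control replicate 3 lay above the lowest library of TL3h, and the lowest library of TL3d lay just above control replicate 3. By the edgeR fit of all libraries MRC1 was not called in any of the 5 comparisons, with log2 fold changes of 1.39 (SE 0.88, q = 0.228) at 3 hours and 2.13 (SE 0.90, q = 0.118) at 3 days against the control group. Without control replicate 3 it rose at both times (2.99, q = 0.0136, and 3.78, q = 0.0257), and over 20 alternatives q ran from 0.00379 to 0.461 at 3 hours and from 0.00535 to 0.276 at 3 days. DESeq2 called MRC1 at 3 days (2.13, q = 0.0386) and from 3 days to 14 days (−2.32, q = 0.0447, with q up to 0.369).

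MSR1, scavenger receptor A, which binds modified lipoproteins, was at 0.997, 1.03, and 2.61 CPM in the control libraries, at 8.73, 13.4, and 11 CPM in TL3h. It was at 42.4, 70.7, and 64.5 CPM in TL3d and at 0.269, 41.8, and 10.2 CPM in TL14d. The first 3 groups were separate from each other, in the order control, TL3h, TL3d, and the TL14d libraries spread 155-fold, from below the control group to just below TL3d. MSR1 rose 38.3-fold at 3 days (log2 fold change 5.26, SE 1.25, q = 0.0228), the largest rise of the 10 genes. The call was lost without control replicate 1 (q = 0.0853) or 2 (0.0839) and without TL3d replicate 1 (0.0587) or 2 (0.0674), and the lowest q of 20 alternatives was 7.75e-06. At 3 hours its log2 fold change was 2.83 (SE 1.13, q = 0.0648), and it was called by DESeq2 (q = 0.014) and in the fit of only the 2 groups (q = 0.00479). It was also called without TL14d replicate 1 (q = 0.00311) and without TL14d replicate 2 (q = 0.0333), libraries that enter this comparison only through the shared estimate of spread, with q from 0.00227 to 0.171 over 20 alternatives. Without TL14d replicate 1, MSR1 was also called at 14 days against the control group (4.07, q = 0.013, with q from 0.013 to 0.978 over 20 alternatives) and from 3 hours to 3 days (2.43, q = 0.00713, from 0.00149 to 0.218). DESeq2 (q = 0.0349) and the fit of only the 2 groups (q = 0.00149) called that step too. Its counts ran from 8 to 2297 per library.

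MARCO, a scavenger receptor with a collagen-like stalk, was at 3.65, 0.500, and 1.5 CPM in the control libraries, at 3.00, 1.58, and 0.805 CPM in TL3h. It was at 8.79, 3.14, and 0.996 CPM in TL3d and at 2.25, 1.01, and 3.48 CPM in TL14d. All groups overlapped, and no comparison was called, with q between 0.29 and 0.953. Its log2 fold change at 3 days against the control group was 1.19 (SE 0.89), and it was 0.13 without TL3d replicate 1. The longer of its transcripts (1743 bases) held 13, 28, and 20 counts in TL3h, at most 7 counts in every other library, and 0 counts in the 3 libraries of TL14d. The shorter one (1531 bases) held 65, 12, and 2 counts in TL3h and between 20 and 345 counts elsewhere. Neither transcript was called in any comparison (the longer one at 3 hours against the control group at q = 0.176), adjusted over 26082 transcripts.

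**Figure D3:**
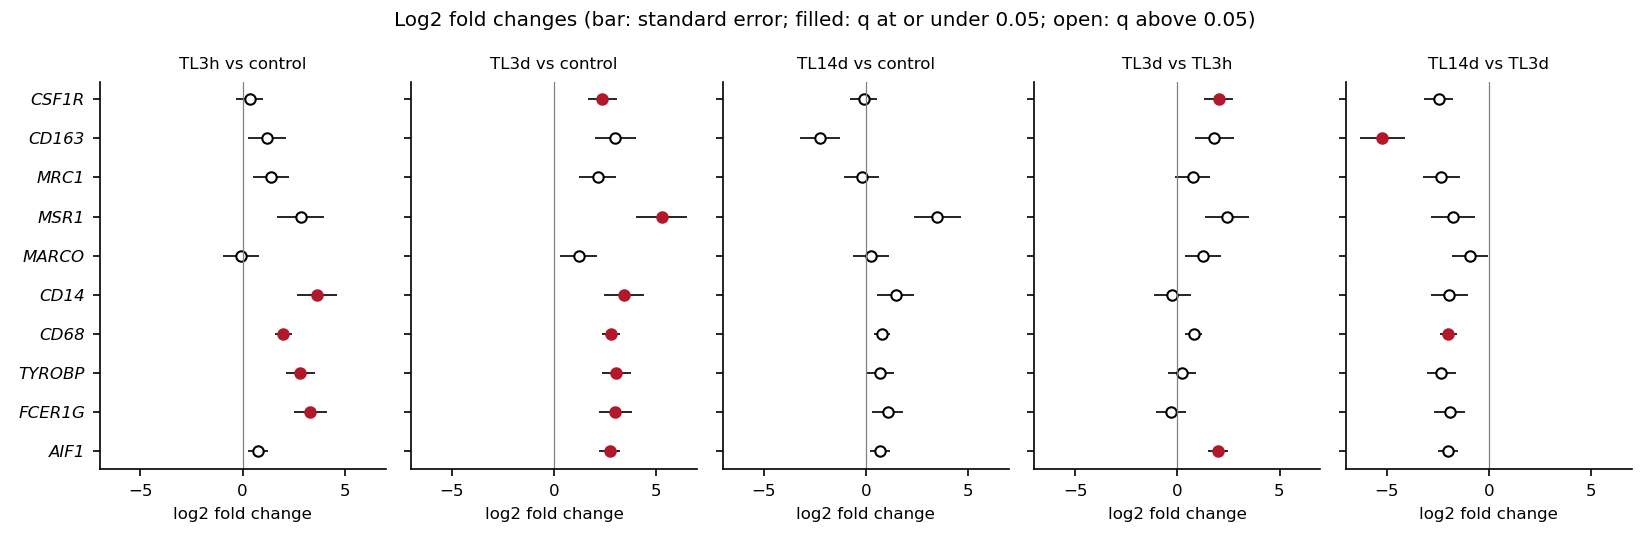
Log2 fold change of each gene in the 5 comparisons, with bars for the standard error, filled points at q of at most 0.05, and open points above it. TL3d against the control group holds 7 filled points between 2.35 and 5.26, and CD163 in TL14d against TL3d lies farthest to the left at −5.21.

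To set the genes against each other within a library, counts were expressed per 100 counts of CSF1R, a ratio that no scaling of libraries can change. It was chosen after the values were seen, has no test, and shares its denominator over all genes. FCER1G was at 11.7, 9.93, and 9.87 counts per 100 of CSF1R in the control libraries, at 85.3, 80.2, and 68.4 in TL3h, at 19.6, 13.8, and 15.2 in TL3d, and at 14.3, 34.2, and 12.6 in TL14d. The 3 control libraries, which differed widely in CPM, thus held FCER1G and CSF1R in nearly the same proportion, and TL3h lay far above. TYROBP was likewise at 26.2, 24.3, and 19.2 in the control libraries and at 126, 125, and 90.0 in TL3h, and CD14 at 25.5, 15.7, and 19.1 against 209, 191, and 152. At 3 hours 7 of the 9 other genes lay above the control libraries in all 3 libraries on this scale (all but MARCO and AIF1), where 6.40% of all genes did so.

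At 3 days 4 of the 9 genes lay above all control libraries on this scale (MSR1, CD14, TYROBP, and FCER1G), where 1.09% of all genes did so and 75.3% lay below. At 14 days TYROBP and FCER1G did, where 1.23% of all genes did so. From 3 hours to 3 days 5 of the 9 lay below (MRC1, CD68, CD14, TYROBP, and FCER1G), where 75.7% of all genes did so and 1.93% lay above. AIF1 held to CSF1R more closely than the rest, at 18.6 to 21.8 counts per 100 in TL3h, 17.0 to 21.8 in TL3d, and 25.4 to 29.1 in TL14d, with 10.8 to 31.0 in the control libraries. CD163 was at 34.6, 36.6, and 90.7 in the control libraries, at 125, 108, and 188 in TL3h, at 165, 66.9, and 135 in TL3d, and at 16.2, 8.0, and 26.7 in TL14d. On this scale the TL14d libraries of CD163 lay below every library of the other groups, where 0.485% of all genes lay below all control libraries and 0.310% below all TL3d libraries in TL14d.

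**Figure D4:**
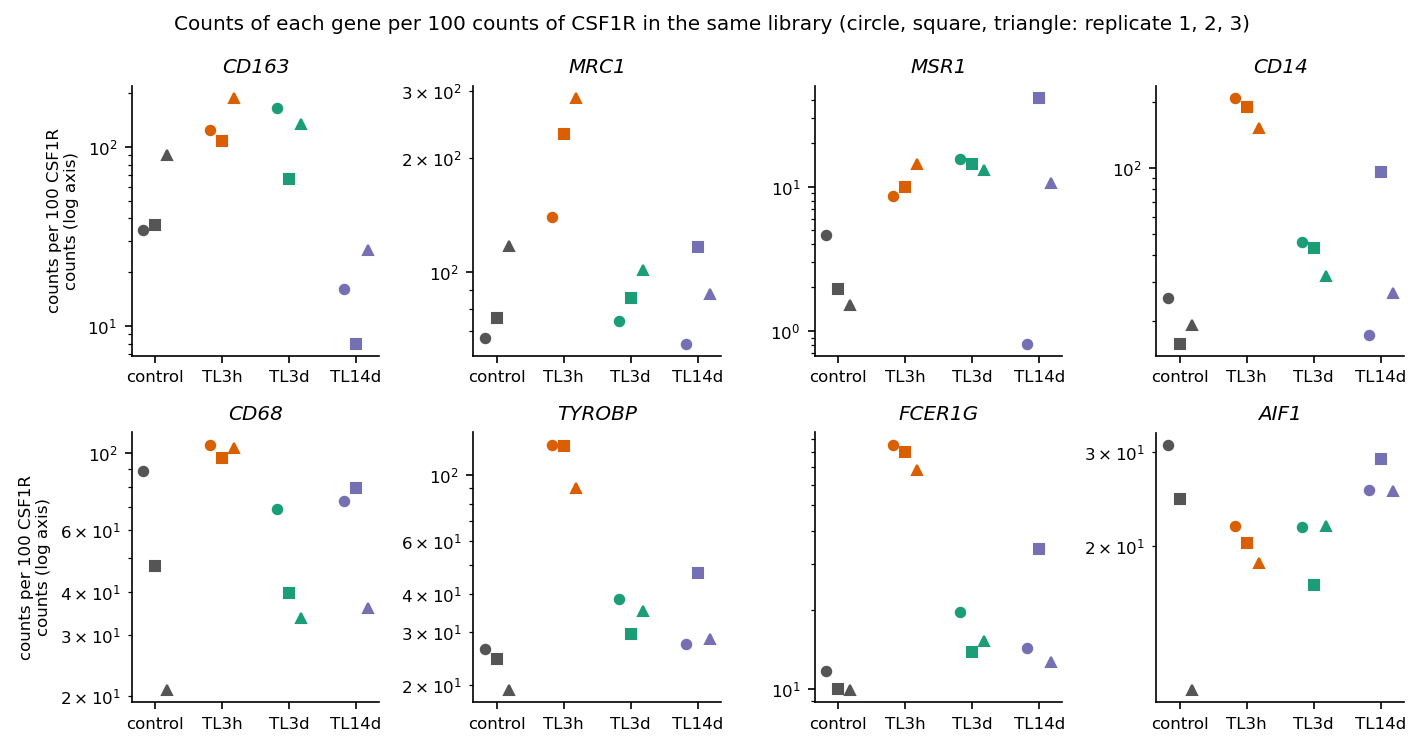
Counts of 8 genes per 100 counts of CSF1R in the same library (log axis), with circles, squares, and triangles for replicates 1, 2, and 3. For CD14, TYROBP, FCER1G, MRC1, and CD68 the 3 libraries of TL3h lie above all other libraries of the same gene, and for CD163 those of TL14d lie below all others, between 8.0 and 26.7.

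Against PTPRC (CD45), a marker of all white blood cells, the picture at 3 hours was another. PTPRC itself was at 13.1, 28.5, and 28.8 CPM in the control libraries, at 167, 190, and 92.5 CPM in TL3h. It was at 119, 144, and 143 CPM in TL3d and at 7.73, 52.0, and 32.3 CPM in TL14d. Per 100 counts of PTPRC, CSF1R was at 61.1 to 82.8 in TL3h against 165 to 602 in the control group, AIF1 at 13.3 to 15.4 against 45.3 to 64.7, and CD68 at 64.5 to 85.8 against 87.8 to 146. These 3 of the 10 genes lay below all control libraries, where 84.7% of all genes did so, and CD14 alone lay above them, at 126 to 135 against 29.0 to 115, where 1.87% did so. From 3 hours to 3 days 6 of the 10 genes lay above on this scale (CD163, CSF1R, MSR1, CD68, TYROBP, and AIF1), where 19.1% of all genes did so. MSR1, at 35.5 to 49.1 in TL3d, was the gene that also lay above the control libraries (3.6 to 9.07), where 1.33% of all genes did so and 87.0% lay below. CD163 in TL14d, at 15.7 to 79.3, lay below all TL3d libraries (228 to 470), where 0.398% of all genes did so and 81.8% lay above.

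Markers of other cell types moved with these genes. Of 11 listed neutrophil markers 9 were in the table, and their summed level was 4.79, 11, and 107 CPM in the control libraries and 2325, 3434, and 1285 CPM in TL3h. It was 854, 665, and 161 CPM in TL3d and 3.97, 120, and 112 CPM in TL14d. All 8 neutrophil markers tested rose at 3 hours and 1 of 8 at 3 days, beside 23.2% and 10.6% of all genes called higher. MPO was at or near 0 in all libraries. Within TL3h the library with the least neutrophil signal (replicate 3) was also the lowest in CD14, TYROBP, FCER1G, CSF1R, CD68, and AIF1. Within TL3d the library with the least neutrophil signal, also replicate 3, was the highest in TYROBP, FCER1G, and AIF1. The part of neutrophils in the levels of CD14, TYROBP, and FCER1G, and in those of the related genes named further below, was not tested.

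Of 7 dendritic cell markers 5 were in the table, with a summed level of 1.85 to 8.23 CPM in the control group, 9.77 to 15.2 in TL3h, 27.0 to 39.9 in TL3d, and 2.05 to 41.2 in TL14d, with BATF3 at 0 in the control group. Of the 4 tested, 1 rose at 3 hours and all 4 (FLT3, XCR1, CCR7, and CD207) rose at 3 days, beside 23.2% and 10.6% of all genes called higher. At 3 days 7 of the 10 genes described here rose, and the part of dendritic cells in those levels was not tested. Within TL14d, replicate 2 held the highest level of CD14, TYROBP, FCER1G, CD68, MSR1, and AIF1 and also of CD207 (langerin), at 22.0 CPM against at most 5.54 CPM in any other library. The 4 lymphatic markers summed to 55.4, 106, and 376 CPM in the control libraries and to 621 to 986 CPM in TL3h, 312 to 402 in TL3d, and 125 to 258 in TL14d. LYVE1, a marker of lymphatic vessels and of some macrophages, was at 10.3, 30.1, and 281 CPM in the control libraries. Control replicate 3 thus stood out in it as in CD163 and MRC1. In the same libraries PROX1, the defining lymphatic marker, was at 3.06, 7.08, and 8.58 CPM. FLT4 was at 5.91, 15.7, and 31.2 CPM and PDPN at 36.2, 53.1, and 55.8 CPM, so that all of them were highest in control replicate 3. Fibroblast markers were likewise highest in control replicate 3 among the controls, at 34399 CPM against 6109 and 15962 CPM. They summed to 46438 to 57684 CPM in TL3h, 725 to 25704 in TL3d, and 4329 to 22448 in TL14d. The 4 blood vessel markers, 2 of which rose at 3 hours (as did 23.2% of all genes), summed to 62.2 to 263 CPM in the control group, 599 to 1205 in TL3h, 286 to 529 in TL3d, and 86.6 to 272 in TL14d. ALAS2, the red blood cell marker in the table, was at 0.0237 to 5.67 CPM in the control group and 11.5 to 99.2 in TL3h and rose at 3 hours (log2 fold change 4.29, SE 1.47, q = 0.0361). Of 8 listed markers of conjunctival epithelium 5 were in the table, with a sum of 3910 to 8294 CPM in the control group, 3955 to 6481 in TL3h, 6073 to 16048 in TL3d, and 8400 to 12518 in TL14d. KRT5, a keratin of basal cells, rose at 3 days (log2 fold change 1.86, SE 0.48, q = 0.0291). EPCAM rose at 3 hours (1.0, SE 0.16, q = 0.000884), when PAX6 fell (−1.70, SE 0.41, q = 0.00693). The part of these cell types in the spread of the control group and in the levels after surgery was not tested. T cell markers summed to between 11.6 and 43.7 CPM in all libraries, B cell markers to at most 8.59 CPM, and natural killer cell markers to at most 4.81 CPM. Of the 6 mast cell markers in the table, CPA3 was at or near 0 everywhere, and the sum (33.8 to 255 CPM) was lower in all libraries of TL3h and TL3d than in the control group. The lower sum came with KIT, which melanocytes also express and which fell at both times (log2 fold change −2.71, SE 0.72, q = 0.0116, and −2.94, SE 0.73, q = 0.026). By contrast, 3 of 5 mast cell markers tested rose at 3 hours and 2 of 5 at 3 days, beside 23.2% and 10.6% of all genes called higher. FCER1A and MS4A2, the other chains of the IgE receptor that FCER1G completes, rose at 3 hours (log2 fold change 2.36, SE 0.74, q = 0.0238, and 2.34, SE 0.82, q = 0.0387) and at 3 days (3.6, SE 0.77, q = 0.0173, and 3.90, SE 0.86, q = 0.0185). FCER1A was at 0.380 to 0.978 CPM in the control group, 1.66 to 4.31 in TL3h, and 7.27 to 8.71 in TL3d. HDC, which makes histamine, rose at 3 hours (2.90, SE 0.77, q = 0.0117), at 1.08 CPM or less in every library. The part of cells with these transcripts in the level of FCER1G was not tested.

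**Figure D5:**
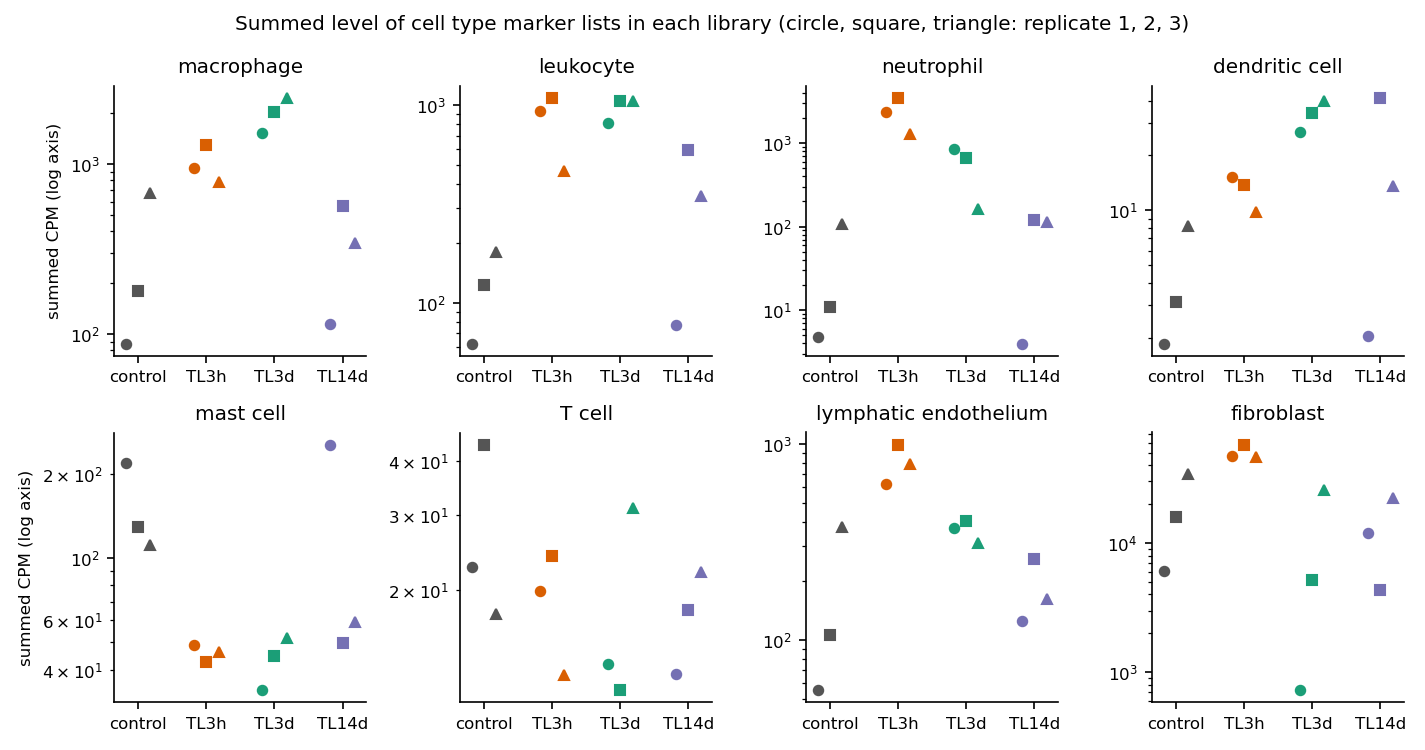
Summed level of 8 marker lists in each library (CPM, log axis), with circles, squares, and triangles for replicates 1, 2, and 3. The neutrophil list peaks at 3 hours (1285 to 3434 CPM) and the macrophage list, which holds the 10 genes described here, at 3 days (1515 to 2429 CPM).

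Genes that work with these receptors were counted in 6 lists, chosen with earlier results of these data known. In the list of CSF1R ligands and myeloid transcription factors, 6 of 9 genes tested rose at 3 hours, 3 rose at 3 days, and none fell against the control group. That is 66.7% and 33.3% of the list, beside 23.2% and 10.6% of all genes called higher at these times. SPI1 (PU.1), a factor that drives myeloid genes including CSF1R, was at 0.902, 1.13, and 1.96 CPM in the control libraries, at 17.4, 21.0, and 7.21 CPM in TL3h, and at 10.1, 12.2, and 11.6 CPM in TL3d. SPI1 thus stood high at 3 hours, when CSF1R was not called, and rose at both times (log2 fold change 3.51, SE 0.64, q = 0.00159, and 3.08, SE 0.63, q = 0.0159). CEBPB rose at 3 hours (2.63, SE 0.39, q = 0.000477) and fell from 3 hours to 3 days (−1.73, SE 0.37, q = 0.00504). The ligand gene CSF1 was at 31.1, 40.1, and 108 CPM in the control libraries and at 142, 268, and 185 CPM in TL3h, where it rose (1.73, SE 0.47, q = 0.0125), while IL34 was not called in any comparison.

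Among the partners of CD14, 6 of 12 genes tested rose and 1 fell at 3 hours, and 7 rose and none fell at 3 days, so that 50% and 58.3% were higher beside 23.2% and 10.6% of all genes. TLR4, the receptor to which CD14 passes its ligand, was at 4.32, 9.56, and 44.8 CPM in the control libraries, at 271, 359, and 199 CPM in TL3h, and at 110, 156, and 144 CPM in TL3d. TLR4 rose at 3 hours (log2 fold change 3.82, SE 0.88, q = 0.00559). LY96 (MD-2), which completes that receptor, rose at 3 hours (3.08, SE 0.45, q = 0.000474) and at 3 days (3.17, SE 0.45, q = 0.00873). TLR2 fell at 3 hours (−1.99, SE 0.32, q = 0.000839), from 83.6 to 21.0 CPM on average. TLR1 rose from 3 hours to 3 days (3.06, SE 0.49, q = 0.000976), as did CD180 (3.98, SE 0.78, q = 0.00305), an inhibitor of TLR4 in macrophages. The adaptor MYD88 (−0.87, SE 0.16, q = 0.00199) and the inhibitory IRAK3 (−2.08, SE 0.49, q = 0.00797) fell in that step. TLR1 (−2.80, SE 0.48, q = 0.0267) and LY96 (−2.67, SE 0.44, q = 0.026) fell from 3 days to 14 days.

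Of 23 listed receptors and kinases that act with TYROBP or FCER1G, 11 were tested, 9 of which rose and 2 of which fell at 3 hours, and 8 rose and 1 fell at 3 days. The shares higher were 81.8% and 72.7%, beside 23.2% and 10.6% of all genes. TREM1, TREM2, and the Fc receptors FCGR1A and FCGR3A are among the 10 listed genes with no row of that name. CLEC4E (Mincle), which signals through FCER1G, was at 0.166, 0.225, and 1.76 CPM in the control libraries, at 59.0, 59.8, and 31.5 CPM in TL3h, and at 36.1, 16, and 13.5 CPM in TL3d. CLEC5A, which signals through TYROBP, was at 0.142, 0.650, and 2.68 CPM in the control libraries, at 32.1, 78.7, and 32.2 CPM in TL3h, and at 33.7, 51.6, and 37.4 CPM in TL3d. Both rose at 3 hours (log2 fold change 6.13, SE 1.44, q = 0.00614, and 5.36, SE 1.5, q = 0.0148) and at 3 days (4.93, SE 1.36, q = 0.0362, and 5.14, SE 1.49, q = 0.0414). The CLEC5A call at 3 hours was lost without control replicate 2 (q = 0.0581, where the lowest of 20 alternatives was 2.95e-05). BLNK (−2.78, SE 0.49, q = 0.00131) and PLCG2 (−1.89, SE 0.26, q = 0.000366), which act downstream of SYK and are also used in B cells, fell at 3 hours. VAV1 fell from 3 days to 14 days (−1.84, SE 0.36, q = 0.0357).

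In the list of other scavenger and lectin receptors 2 of 18 genes tested rose and 3 fell at 3 hours, and 2 rose and none fell at 3 days, so that 11.1% were higher at each time beside 23.2% and 10.6% of all genes. OLR1, a receptor of oxidized lipoproteins, was at 0.166, 0.200, and 0 CPM in the control libraries and at 7.69, 4.02, and 2.05 CPM in TL3h. It rose at 3 hours (log2 fold change 5.19, SE 1.43, q = 0.0138). CLEC7A (dectin-1), a receptor of fungal glucans, was at 2.37, 2.93, and 3.19 CPM in the control libraries, at 27.4, 20.5, and 8.20 CPM in TL3h, and at 61.7, 57.0, and 71.3 CPM in TL3d. CLEC7A rose at both times (2.72, SE 0.90, q = 0.0311, and 4.48, SE 0.97, q = 0.0178). CD36 rose at 3 days (2.26, SE 0.46, q = 0.0157) and fell from 3 days to 14 days (−3.54, SE 0.49, q = 0.0203). MERTK, a receptor for the uptake of dying cells, and SCARB2, a lysosomal protein, fell at 3 hours (−0.94, SE 0.15, q = 0.000875, and −0.90, SE 0.22, q = 0.00826) and rose from 3 hours to 3 days (0.63, SE 0.15, q = 0.00957, and 1.17, SE 0.22, q = 0.00278).

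CD163 delivers hemoglobin to the cell for breakdown, and of 11 genes of that handling of heme and iron 6 rose and 1 fell at 3 hours, and 4 rose and none fell at 3 days. The shares higher were 54.5% and 36.4%, beside 23.2% and 10.6% of all genes. HMOX1, which degrades heme, was at 26.2, 25.4, and 77.8 CPM in the control libraries, at 1237, 2877, and 1618 CPM in TL3h. It was at 233, 124, and 85.3 CPM in TL3d and at 26.4, 28.7, and 23.6 CPM in TL14d. HMOX1 rose 44.3-fold at 3 hours (log2 fold change 5.47, SE 0.61, q = 0.000123) and fell from 3 hours to 3 days (−3.70, SE 0.56, q = 0.000772), while CD163 was highest at 3 days. SLC11A1, a metal transporter of phagosomes, rose at 3 hours (6.98, SE 1.36, q = 0.00232), and the iron exporter SLC40A1 fell (−0.90, SE 0.22, q = 0.00803). SLC11A1 was at 95.3, 202, and 44.1 CPM in TL3h and at 23.6, 15.6, and 3.73 CPM in TL3d, lowest in replicate 3 of both groups. The summed neutrophil markers were also lowest there, and the part of neutrophils in the level of SLC11A1 was not tested. NCOA4, which directs ferritin to lysosomes, fell from 3 hours to 3 days (−1.30, SE 0.30, q = 0.00678), and BLVRA, which acts after HMOX1, rose (1.31, SE 0.40, q = 0.028). The fall of HMOX1 from 3 days to 14 days (−2.49, SE 0.54, q = 0.0472) was lost in 15 of 20 alternatives (q from 0.000132 to 0.152), and that of FTL (−0.91, SE 0.20, q = 0.0499) in 14 (q from 0.000384 to 0.162).

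Of 17 further genes of macrophage content 5 rose and 1 fell at 3 hours, and 13 rose and none fell at 3 days, so that 29.4% and 76.5% were higher beside 23.2% and 10.6% of all genes. MPEG1 (perforin-2), which phagocytes use against bacteria, was at 9.26, 35.8, and 65.1 CPM in the control libraries, at 79.1, 111, and 64.7 CPM in TL3h, and at 608, 1055, and 1088 CPM in TL3d. MPEG1 rose at 3 days (log2 fold change 4.64, SE 1.02, q = 0.0181). CX3CR1, the fractalkine receptor, was at 4.01, 4.73, and 1.71 CPM in the control libraries, at 0.615, 0.290, and 0.183 CPM in TL3h. It was at 2.97, 10.4, and 10.3 CPM in TL3d and at 2.62, 15.6, and 19.5 CPM in TL14d. It fell at 3 hours (−3.25, SE 0.84, q = 0.01) and rose from 3 hours to 3 days (4.43, SE 0.87, q = 0.00315). CCR2, the chemokine receptor of blood monocytes, was at 34.3, 58.3, and 43.8 CPM in TL3d and at 0.975, 2.17, and 3.97 CPM in TL14d and fell between them (−4.26, SE 0.50, q = 0.019). APOE fell from 3 hours to 3 days (−2.69, SE 0.60, q = 0.00631), and LGMN, a lysosomal protease, fell from 3 days to 14 days (−1.81, SE 0.40, q = 0.0494), a call lost in 12 of 20 alternatives (q from 0.00038 to 0.128).

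Across the named genes of the 6 lists, 28 of 55 calls held in all 20 alternatives and none of the 55 changed direction. Those that held include SPI1, CEBPB, TLR4, LY96, TLR2, CLEC4E, HMOX1, SLC11A1, and CX3CR1 at 3 hours, and the others were lost in 1 (CLEC5A at 3 hours) to 15 (HMOX1 from 3 days to 14 days) of 20. From 3 days to 14 days 0 of all genes were called without TL3d replicate 2. The falls of TLR1, LY96, VAV1, CD36, CCR2, HMOX1, FTL, and LGMN in that step are thus all among the calls lost. Without control replicate 1 the genes that rose at 3 days came to 0 of 9 for the CSF1R list, 3 of 12 for the CD14 list, and 1 of 11 for the list of receptors and kinases. They came to 0 of 18 for the other scavenger and lectin receptors, 1 of 11 for heme and iron handling, and 1 of 17 for macrophage content. In the same fit 491 of all genes were called. On library size alone the counts of genes higher at 3 hours were 4, 5, 7, 1, 5, and 5 in the same order. With that scaling 7563 of all genes were called at 3 hours and 25.0% of these were higher, beside 6733 and 51.0% with TMM.

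The patterns over the 12 libraries were compared by the root mean square difference of log2 CPM after each gene was centered on its own mean, a measure that is smaller the more alike 2 genes run. Among the 45 pairs of the 10 genes, TYROBP and FCER1G were closest (0.30), followed by CD14 and FCER1G (0.35) and by CSF1R and AIF1 (0.39), and MSR1 and MARCO were farthest apart (2.54). Among all genes tested, those nearest to CSF1R were RGS18 (0.34), VSIG4 (0.35), and FLT3 (0.37), and those nearest to CD163 were ABCA6 (0.69), MS4A4A (0.92), and MS4A6A (1.02). CD68 ran closest to VAV1 (0.20), TYROBP to IL10RA (0.20), CD14 to ITGB2 (0.25), FCER1G to CD53 (0.26), and AIF1 to NRROS (0.27). MRC1 ran closest to NRP1 (0.46), MARCO to KLRG2 (0.61), and MSR1 to AOAH (0.68). These values describe 12 libraries that share groups and depth and have no test.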

How the data were processed

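RNA of 12 conjunctiva samples was sequenced as 150 bp paired-end reads. The authors mapped the reads with STAR 2.6.0c, per the labels, to OryCun2.0 and made values per gene and transcript with GeneData Profiler Genome. The authors deposited estimated counts, of which 23.4% in the gene table were fractions, and FPKM values, divided by length and depth. How reads with several placements were shared, and whether strand was used in counting, is not given in the sources used here.

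Estimated counts were rounded. The edgeR 4.0.16 filter filterByExpr (minimum count 10, minimum total 15) under R 4.3.3 kept 14835 of 20566 genes. All 12 libraries entered 1 quasi-likelihood fit (glmQLFit, glmQLFTest) with TMM scaling and no covariates. The Benjamini-Hochberg adjustment ran over all genes tested, with a threshold of 0.05. The study's methods name edgeR and this threshold, and the test and filter were chosen here. The default prior count of edgeR applied to fold changes, and each SE is the size of the log2 fold change divided by the root of F. FPKM served only to compare levels between genes. Patterns used log2 CPM with a prior count of 2.

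The plan had named counts and kept its test for these estimated counts. The alternatives were RLE size factors, library size only, DESeq2 1.42.0, limma-trend 3.58.1, no filter, a replicate block, only the 2 groups compared, and leaving out each library. The members and lists were chosen with earlier results of these data known. Named were all members and, from each list and comparison, up to 2 genes called higher and 2 called lower with the largest changes and a mean of at least 1 CPM. A gene that this rule names is not reported here. CSF1, IL34, PTPRC, and single markers were named after their values were seen.

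A count of 0 allows up to 3 counts with 95% confidence, or 0.0712 to 0.124 CPM, which covers counting error only. Libraries of a group were not copies: their squared difference over its counting variance, near 1 for copies, was at least 75.9. The labels give replicates as separate samples without naming animals, so p-values measure the spread between these samples. The fit was tested on simulated data. A reference table of another rabbit assembly was not used, and no sequences are shown.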

Additional observations from a re-analysis of the deposited data

Results flagged for a closer look

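Of the 10 genes, 4 had effects that differed between time points by the test of the difference itself (edgeR quasi-likelihood test, q at or under 0.05). CSF1R was higher at 3 days than at 3 hours by a log2 difference of 2.02 (q = 0.0419) and AIF1 by 1.98 (q = 0.0116), in 3 of 3 libraries each. CD163 differed from 3 days to 14 days by −5.21 (q = 0.0457) and CD68 by −1.98 (q = 0.0444), with all 3 libraries of TL14d below all 3 of TL3d. Of all genes tested, 37.3% were called from 3 hours to 3 days (18.4% higher) and 2.24% from 3 days to 14 days (1.59% lower). The 2 of 10 genes called higher from 3 hours to 3 days thus lay near the share over all genes. The AIF1 call held in all 20 alternatives (q from 0.000334 to 0.0446). The others were lost in 8 (CSF1R, q from 0.00331 to 0.118), 11 (CD163, q from 6.62e-07 to 0.125), and 12 (CD68, q from 0.000289 to 0.137) of 20.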

How the results depend on the processing

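Over 20 alternatives, the log2 fold changes of the 10 genes in 5 comparisons kept their direction and their side of the threshold in 868 values, gained a call in 43, lost one in 65, and turned in direction in 24, none of which belonged to a called change. The cause was not tested. Turned values for CSF1R were, at 14 days against the control group, 1.41 without control replicate 3 and TL14d replicate 1 together, 0.24 by limma-trend, 0.067 with the replicate block, 0.27 without TL14d replicate 1, and 1.05 without control replicate 3, and, at 3 hours, −0.12 on library size only and −0.12 without control replicate 1. For MRC1 at 14 days they were 1.89, 0.29, 0.087, 0.25, and 1.45 under the same 5 settings. CD163 at 14 days turned to 0.33 without both libraries. MARCO turned to 0.12 from 3 days to 14 days without TL3d replicate 1, to −0.22 and −0.20 at 14 days without TL14d replicate 3 and control replicate 2, and at 3 hours to 0.14 by limma-trend, 0.12 with the block, 0.22 without TL3h replicate 3, and 0.83 without control replicate 1. From 3 hours to 3 days CD14 turned to 0.24 on library size only and 0.045 without TL3h replicate 2, FCER1G to 0.15 on library size only, and TYROBP to −0.019 without TL3h replicate 3. Leaving out 1 library gave CSF1R −0.12 to 1.44 at 3 hours and −0.55 to 1.05 at 14 days, and MRC1 −0.70 to 1.45 at 14 days. For MARCO the lowest and highest values were −0.72 and 0.83 at 3 hours, −0.22 and 1.16 at 14 days, and −1.41 and 0.12 from 3 days to 14 days. Between 3 hours and 3 days it gave CD14 −0.47 to 0.045 and TYROBP −0.019 to 0.57.

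Of the 10 genes, leaving out 1 library gave 3 to 6 calls at 3 hours, 1 to 9 at 3 days, and 0 to 1 at 14 days against the control group, 1 to 3 from 3 hours to 3 days, and 0 to 3 from 3 days to 14 days. Over all genes these counts ran from 5280 to 7271, 359 to 3778, 0 to 716, 3954 to 6231, and 0 to 584. Without control replicate 3 and TL14d replicate 1 together, 9 members were called at 3 hours and 3 at 14 days, 4 from 3 hours to 3 days, and 1 from 3 days to 14 days. Over all genes 7573, 999, 6525, and 320 were called in the same order. DESeq2 called 1 member and 367 genes at 14 days, 4471 genes at 3 days, and 6 members and 1850 genes from 3 days to 14 days. The fit of only the 2 groups compared called 5 members and 5823 genes (40.9%) from 3 hours to 3 days and 0 members and 15 genes from 3 days to 14 days. Group means kept within 1 SD in 557 values, and 3 moved further, on library size only.

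The replicate numbers were not taken to pair the libraries, since same-numbered libraries had correlations of −0.147 to 0.481 and 8 of 18 were over 0.1, although 7 of 12 libraries correlated best with their own number. With the replicate block, 6 members were called at 3 hours, 9 at 3 days, 0 at 14 days, 2 from 3 hours to 3 days, and 3 from 3 days to 14 days, with 6946, 2719, 0, 5831, and 288 genes. The block added CD163 at 3 hours (2.12, q = 0.0485) and 3 days (3.78, q = 0.022), MRC1 at 3 hours (1.95, q = 0.0376) and 3 days (2.59, q = 0.0331), and AIF1 from 3 days to 14 days (−2.11, q = 0.0479).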
